A study of Mus musculus with 2 samples.

Results

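The genes described here carry the Notch signal from one cell to its neighbour: the Mindbomb ligases Mib1 and Mib2, the ligands Dll1, Jag1 and Jag2, the receptors Notch1 and Notch3, and the effectors Hes1, Hey1 and Heyl. They were chosen by name, as probes whose symbol in the platform annotation is one of these 10 genes. Each gene had 1 probe among the 25697 on the array, and all 10 were detected on at least 1 array, as were 8815 of the 16593 named genes in all.

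The series measured tibialis anterior muscle, a muscle of the lower leg, in C57/BL6 mice, under a title about sex hormones and the adult pool of muscle stem cells. Mice 10 days old received vehicle or DHT, read here as the androgen dihydrotestosterone, under the skin, and the muscle was taken 24 h later. Each group had 1 Illumina bead array. No altered gene is given for either group, and the labels do not give the dose, the sex of the animals, or whether an array held RNA of 1 animal or of a pool. With no replicates there is no test, and every difference below describes this pair of arrays.

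In Notch signalling a ligand on the sending cell binds a receptor on the receiving cell. The sending cell takes the ligand back in after Mindbomb has tagged it with ubiquitin, and this pull opens the receptor to cutting by ADAM proteases and gamma-secretase. The freed intracellular part enters the nucleus, joins the DNA-binding protein RBPJ, and switches on genes of the Hes and Hey families, which encode repressors. In skeletal muscle the pathway is known for keeping satellite cells, the muscle stem cells, undifferentiated and quiescent, and in vessels for its part in arteries and mural cells.

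On the DHT array the ligase Mib1 and the effectors Hes1, Hey1 and Heyl were brighter, by 3.94-fold to 6.94-fold after background correction. The receptors Notch1 and Notch3 were dimmer, by 1.96-fold and 2.72-fold. Mib2, Dll1 and Jag2 differed by less than 1.15-fold in either direction, and Jag1 was dimmer with only a bound on its change. At 1.5-fold, 4 of the 10 were higher and 2 lower, where 12.1% of all 8815 genes were higher and 13.9% lower. At 2-fold, 4 were higher and 1 lower, against 3.96% and 5.2% of all genes. Without background correction the counts at 1.5-fold were again 4 higher and 2 lower, where 6.52% and 7.98% of all genes were. The median over the 10 was 0.17 on the log2 scale, and over all genes 0. These genes were picked with earlier results of the same arrays known, so the counts are a description.

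**Figure D1:**
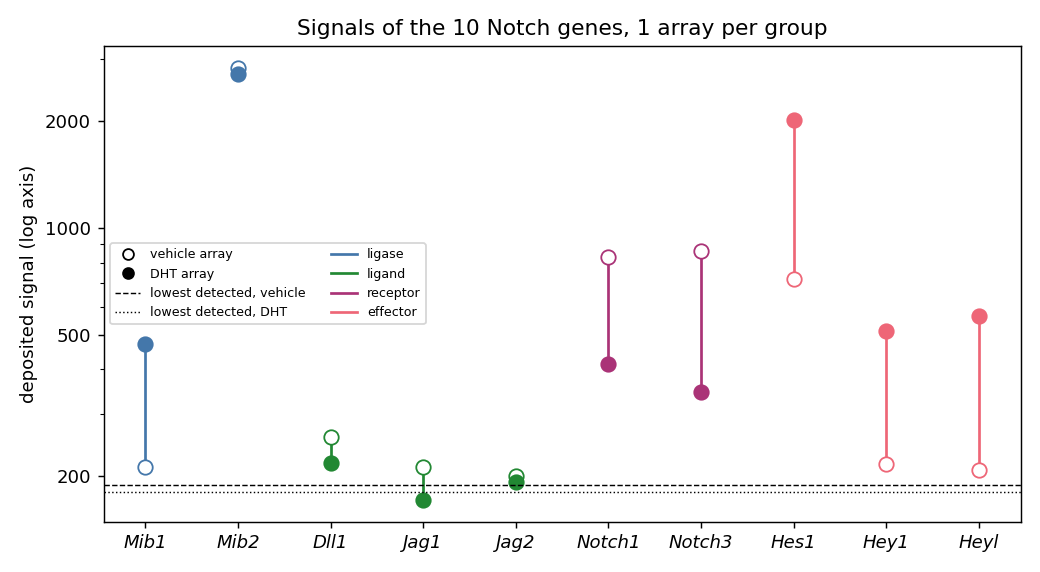
Deposited signal (log axis, arbitrary units, not normalized) of the 10 Notch genes on the vehicle array (open circles) and the DHT array (filled circles), 1 array per group, coloured by step. The horizontal lines mark the lowest detected signals, 190 with vehicle and 180 with DHT. Mib1, Hey1 and Heyl start just above that line on the vehicle array, and Jag1 lies below it on the DHT array.

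The dim end of the scale matters for these probes. The array signal includes background, and probes with a detection p above 0.05 had a median signal of 146 with vehicle and 143 with DHT. The detection p compares a probe with negative control probes, and its steps correspond to 798 controls per array. A probe was called detected at a detection p under 0.01. Background correction subtracts that background, so it enlarges the folds of dim probes, and both versions are given below.

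Mib1, the ubiquitin ligase that makes bound Notch ligands competent to signal, was read by probe ILMN_2933834. Its deposited signal was 213 with vehicle and 471 with DHT. Only 1 of the 798 controls was brighter than it with vehicle, and 0 with DHT. Above the median background this is a signal of 66.2 with vehicle and 328 with DHT. The difference, DHT minus vehicle, was 2.38 on the log2 scale, or 5.20-fold, and 2.54-fold without background correction. Among the 2204 genes in the second quartile of brightness, where Mib1 falls, 17 genes, Mib1 among them, had a difference as high, which is 0.771%.

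Mib2, a related ligase with strong expression in skeletal muscle, was read by probe ILMN_2769393. Its signal was 2833 with vehicle and 2713 with DHT, far above background on both arrays. The difference was 0.18 (1.13-fold), and 0.17 without background correction. The raw signal was slightly lower with DHT and the normalized value slightly higher. Over the processing alternatives tried, Mib2 ran from 1.13-fold to 1.19-fold, and Mib1 from 2.54-fold to 5.25-fold.

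The ligands were dim on both arrays. Dll1, a Delta-type ligand, gave 258 with vehicle and 218 with DHT on probe ILMN_2721188, and 1 control was brighter on each array. Its difference was -0.19 (1.14-fold lower), or -0.09 without background correction. Jag2, a Serrate-type ligand, gave 201 and 192 on probe ILMN_2626585, with 2 and 3 brighter controls, and a difference of 0.16, or 0.05 without background correction. As for Mib2, the raw signal of Jag2 was lower with DHT and the normalized value higher, so its direction follows from the scaling between the arrays.

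Jag1, the other Serrate-type ligand, was detected with vehicle, at a signal of 213 on probe ILMN_1257077 with 1 brighter control. With DHT its signal was 171, 20 controls were brighter and the detection p was 0.0251, so it was not well above background. Set against the lowest detected signal of the DHT array, Jag1 was at least 1.29-fold lower. The bound was 1.09-fold without background correction, and both are under the 1.5-fold threshold. With detection taken at a p under 0.05, Jag1 counted as measured on both arrays and its difference was -0.63 (1.54-fold lower), past the threshold.

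How far a ligand could be followed downwards was limited by its brightness. The fall from the vehicle value to the lowest detected value of the DHT array was 1.98-fold for Dll1, 1.29-fold for Jag1 and 1.11-fold for Jag2. A larger fall of any of these would have been given only as a bound. No such limit touches the receptors, for which the same distance was 10.9-fold for Notch1 and 11.4-fold for Notch3.

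Both receptors were lower on the DHT array. Notch1, the receptor found on satellite cells, endothelium and lymphoid cells among others, gave a signal of 831 with vehicle and 413 with DHT on probe ILMN_1241915. Its difference was -0.97, and it was 1.69-fold lower without background correction. Notch3, a receptor of vascular smooth muscle, pericytes and satellite cells, gave 859 and 345 on probe ILMN_2697380. Its difference was -1.44, and it was 2.12-fold lower without background correction. On each array 0 of the 798 controls were brighter than either receptor probe.

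Of the 2204 genes in the same quartile of brightness, 163 (7.40%) were as low as Notch1 and 65 (2.95%) as low as Notch3, each receptor included. At 1.5-fold, 17% of the genes in that quartile were lower and 13.3% higher.

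The upstream sequences of the receptor genes are shown because both genes were lower with DHT, with the short boxes that Hes and Hey proteins are known to bind. They run from 250 bases before a start given in the promoter table to 10 bases from it on, from RefSeq (build GRCm38.p6), on the minus strand, Notch1 at chr2:26503813-26504072 and Notch3 at chr17:32166881-32167140. The start used for Notch1 is that of the gene in the RefSeq gene table, and the one used for Notch3 lies 6 bases inside the gene from that table's start. Capitals mark every match, on either strand, to CACGNG, a class C box, or CACNAG, an N box.
Notch1: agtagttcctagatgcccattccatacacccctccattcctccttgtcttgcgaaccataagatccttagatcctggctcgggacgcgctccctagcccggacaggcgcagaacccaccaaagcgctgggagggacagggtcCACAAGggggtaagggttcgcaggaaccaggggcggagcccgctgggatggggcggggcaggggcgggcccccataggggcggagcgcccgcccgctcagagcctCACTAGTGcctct
Notch3: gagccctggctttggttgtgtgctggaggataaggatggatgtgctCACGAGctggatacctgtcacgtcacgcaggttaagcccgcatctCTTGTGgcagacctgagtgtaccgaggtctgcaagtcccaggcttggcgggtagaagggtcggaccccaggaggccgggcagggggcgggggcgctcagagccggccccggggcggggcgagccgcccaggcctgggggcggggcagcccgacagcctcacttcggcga

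The Notch1 window held 3 matches to the N box, 2 of which overlap at the start used, and 0 to the class C box. The Notch3 window held 1 class C box, whose letters also match the N box, and 1 further N box. Among 32851 promoter windows of 300 bases in the same table, 27.5% held the class C box and 42.5% the N box. The letters TGGGAA, the core of the RBPJ site, stood in neither receptor window of 300 bases, and in 25.6% of all windows. The class C box also stood in windows of Mib2 (0.18), Dll1 (-0.19) and Jag2 (0.16), genes under 1.5-fold. The printed windows were 65.4% (Notch1) and 68.5% (Notch3) G or C, and the shares over all windows were not matched on this. A match is a description of letters and shows no binding, and an action of Hes or Hey proteins on the receptor genes was not tested. The table gave windows for 6 of the 10 genes. Hes1, Hey1, Heyl and Mib1 had none there.

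All 3 effectors were higher on the DHT array. Hes1, a repressor that is a direct target of Notch in many tissues, was well above background on both arrays. Its signal on probe ILMN_1247691 was 717 with vehicle and 2016 with DHT. The difference was 1.98 (3.94-fold), and 3.36-fold without background correction, so its size depended little on that step. In its quartile of brightness 13 of 2203 genes (0.590%) were as high. Hes1 is also known to respond to other signals than Notch.

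Hey1 and Heyl, Hey family repressors that Notch induces in satellite cells and vessel walls, were dim with vehicle. Hey1 gave 216 with vehicle and 512 with DHT on probe ILMN_2690596, with 1 and 0 brighter controls. Its difference was 2.47 (5.54-fold), and 2.70-fold without background correction. Heyl gave 208 and 564 on probe ILMN_1213139, also with 1 and 0 brighter controls. Its difference was 2.80 (6.94-fold), and 3.10-fold without background correction. Among the 2204 genes of their quartile, 16 were as high as Hey1 (0.726%) and 7 as high as Heyl (0.318%), each gene included.

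**Figure D2:**
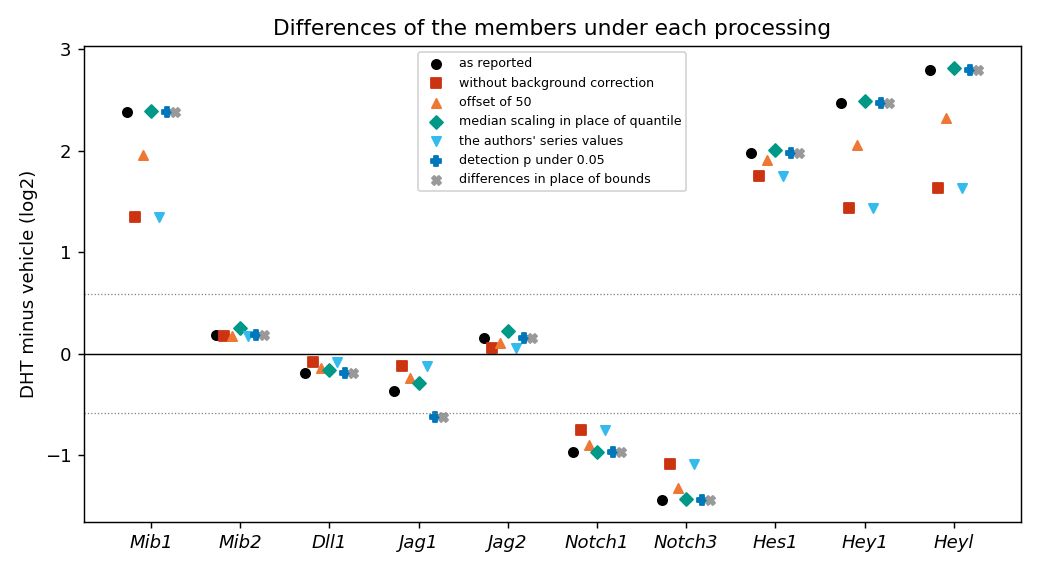
DHT minus vehicle (log2) of each of the 10 genes under 7 ways of processing the same pair of arrays, with 1.5-fold as dotted lines. The authors' series values nearly equal those without background correction. Jag1 is drawn at its bound where it was not detected with DHT. Mib1, Hey1 and Heyl keep their sign but shrink to between 1.34 and 1.63 without background correction, while Hes1 stays between 1.75 and 2.00.

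The arrays offer 1 internal yardstick, the gap between probes of the same gene. Each pair of detected probes was placed by the brightness of its dimmer probe. For the 683 genes placed in the second quartile, the log2 differences of the pair lay apart by a median of 0.19. For 95 percent of these genes they lay apart by less than 0.68. In the dimmest quartile, which holds the 3 ligands, the median gap was 0.27 and the same limit 0.79 over 503 genes. The differences of Mib1, Notch1, Notch3, Hey1 and Heyl were larger than that limit in their quartile, and that of Hes1 larger than the 0.50 of the third quartile. Those of Dll1 and Jag2 were smaller than the limit in theirs, and that of Mib2 smaller than the 0.44 of the brightest. Jag1 has only a bound, so it cannot be set against the limit. Such gaps come from the same RNA, so they cover probe error and not the spread between animals.

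**Figure D3:**
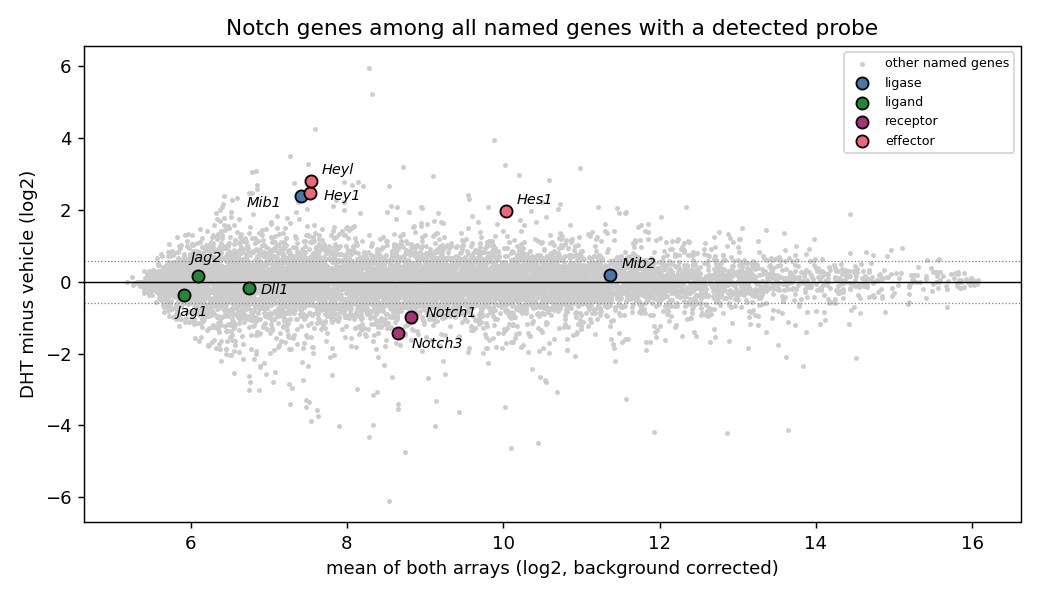
DHT minus vehicle (log2) against the mean of both arrays (log2, background corrected) for 8815 named genes with a detected probe, with the 10 Notch genes coloured by step. Genes detected on 1 array only, Jag1 among them, are drawn at their bound. Mib1, Hes1, Hey1 and Heyl lie near the upper edge of the cloud, and the ligands and Mib2 within it.

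The rest of the pathway was followed over 104 other genes, listed with earlier results of these arrays known. Of these, 63 were detected, 30 were detected on neither array and 11 had no probe under their name. At 1.5-fold 5 of the 63 were higher and 17 lower, together 34.9%, where 26.1% of all genes were past that fold. Their median was -0.11. Without background correction 3 were higher and 12 lower, together 23.8%, where 14.5% of all genes were past that fold. Of the 17 lower genes, 7 were on the list of targets and 5 on a broad list of other ligands, described below.

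**Figure D4:**
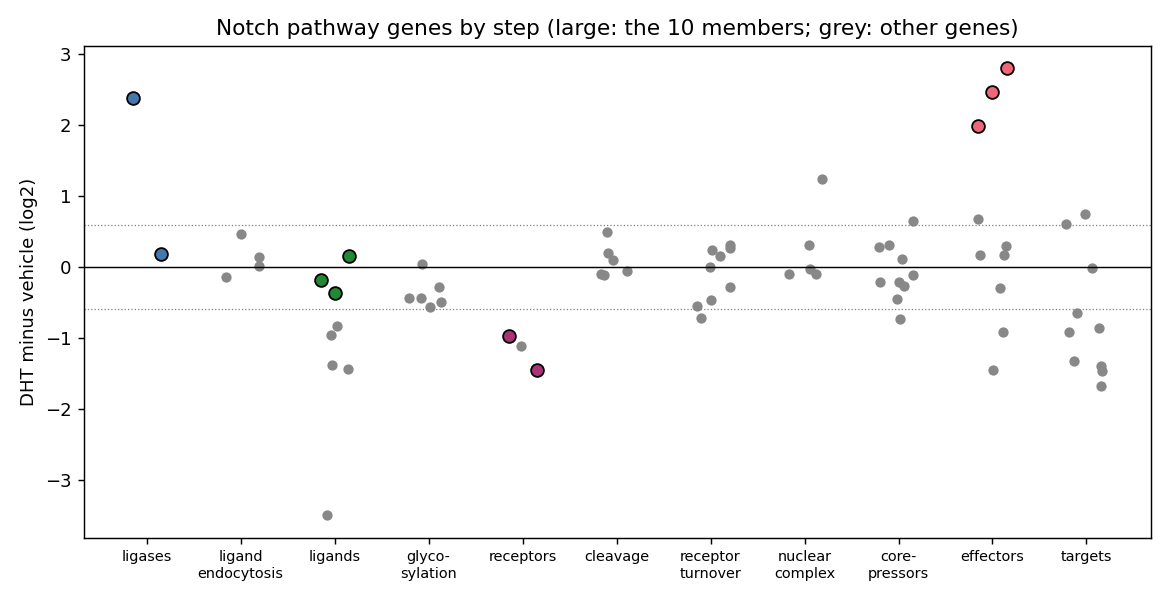
DHT minus vehicle (log2) of the Notch pathway genes with a detected probe, by step, with the 10 genes described above as large coloured points and the other genes in grey. Dotted lines mark 1.5-fold, and genes detected on 1 array only are drawn at their bound. The machinery steps, from ligand endocytosis to corepressors, lie mostly between the dotted lines, while the grey genes of the ligand step, Notch4 and most targets lie below.

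The list of other ligands was broad, and its detected genes were lower. All 5 detected members of that list were past 1.5-fold: Dlk1, a non-canonical inhibitor of Notch, at -3.49 (signals of 3914 and 402), the microfibril proteins Mfap2 (-1.44) and Mfap5 (-0.95), the vessel protein Egfl7 (-0.84), and Dner, at least 2.61-fold lower. Dner was not well above background with DHT. Without background correction its plain difference was 1.55-fold, but at its bound it was under 1.5-fold, and 4 of the 5 were then past 1.5-fold. The Delta-type ligands Dll3 and Dll4 were detected on neither array, nor was the contact protein Cntn1, and Dlk2 had no probe under its name. Among the remaining receptors, Notch4, which is made by endothelium, was also lower, at -1.11 with signals of 2270 and 946. Notch2 was detected on neither array.

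Of the machinery between ligand and nucleus, 3 lists held no gene past 1.5-fold: ligand endocytosis (4 detected genes), receptor glycosylation (6) and receptor cleavage (6). Ligand endocytosis included the ligase Neurl1a (0.46). Receptor cleavage included the protease Adam17 (-0.10) and the gamma-secretase subunits Psen2 (0.10), Ncstn (-0.11), Psenen (0.20) and Aph1a (0.49, 1.26-fold uncorrected). Epn2, an epsin of ligand endocytosis, stood at 0.01 on its brightest probe, but its other detected probes ran from -0.61 to 0.20, so its value is uncertain. The glycosylation genes had a median of -0.44, or -0.22 without background correction, with the fringe Mfng at -0.56 (1.36-fold lower uncorrected). Of 9 genes of receptor turnover, the E3 ligase Dtx4 (-0.72, with a second probe at -0.34) was lower, and Fbxw7, which marks the Notch intracellular part for destruction, stood at -0.54. Dtx4 was 1.49-fold lower uncorrected, and 0 of the 9 were past 1.5-fold without background correction or with means over probes.

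In the nucleus, Rbpj was detected on neither array, so the level of the pathway's own DNA-binding protein was not compared. The acetyltransferase Kat2b was higher (1.24, with a second probe at 1.53), while Maml1, a coactivator of the complex (-0.10), and Ep300 (-0.10) were near equal. Of the corepressors, Tle2 (0.65) was higher and Sin3a (-0.74) lower. Tle2 was dim, and its uncorrected fold was 1.22.

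Not every effector was higher. Nrarp, a Notch target that feeds back on the pathway, was lower (-0.92, signals of 991 and 496). Hes6, which counters Hes1 and promotes myogenic differentiation, was lower on its brightest probe (-1.45), but its other probes gave 0.16 and 0.42, so its direction is uncertain. Bhlhe40, a repressor of the same protein class, was higher (0.68). Hes2, Hes3, Hes5, Hes7, Hey2 and Bhlhe41 were detected on neither array. Id1 (0.30), Id2 (-0.30), Id3 (0.17) and Id4 (0.16) were under 1.5-fold.

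Genes reported as Notch targets in satellite cells or other tissues were mostly lower. The list does not separate genes that Notch raises from genes that it lowers. Of 10 detected, 7 were lower, where 13.9% of all genes were. They were the collagens Col5a1 (-1.33), Col5a3 (-0.91), Col6a1 (-1.39) and Col6a2 (-1.68), the cyclin Ccnd1 (-1.47), the cell cycle inhibitor Cdkn1b (-0.65, 1.20-fold uncorrected), and Calcr, at least 1.81-fold lower. Off this list, the fibroblast collagens Col1a1 (-1.77) and Col3a1 (-1.54) were lower as well. The part of Notch in the collagen values was not tested. On the list, the cell cycle inhibitor Cdkn1a (0.75) and the transcription factor Gata2 (0.61) were higher. Without background correction 4 of the 10 were lower and 1 higher, and Col5a3 (1.31-fold), Cdkn1b, Calcr (at its bound) and Gata2 (1.39-fold) were then under 1.5-fold. Pax7, Myc, Ptcra, Il2ra and Dtx1 were detected on neither array.

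Several of these genes are made by cell types whose markers differed between the arrays, and in whole muscle fewer cells of a type and less RNA per cell cannot be told apart. All marker counts below are at 1.5-fold, where 13.9% of all genes were lower and 12.1% higher. Without background correction these shares were 7.98% and 6.52%. Of 12 muscle fibre markers 11 were detected, with a summed deposited signal of 593095 with vehicle and 591821 with DHT. Most of that sum comes from probes near the top of the scale, whose differences are compressed, so it says little on the fibres. Of those markers under 40000 on both arrays, Mb was higher (0.75, with its other probe at 1.15) and Myh1 stood at -0.47, with its other probe at -0.69. Of 15 endothelial markers, 12 were detected and 8 were lower and 0 higher, led by Cdh5 (-1.78), Tie1 (-1.36), Emcn (-1.25) and Esam (-1.22), and the summed signal went from 26943 to 13170. Kdr and Erg were not detected. Without background correction 8 of the 12 were again lower and 0 higher.

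Of 10 pericyte and smooth muscle markers, with Notch3 and Heyl left out, 9 were detected. Of these, 5 were lower, Tagln (0.70, 1.20-fold uncorrected) was higher and 3 were under 1.5-fold: Rgs5 (-0.18), Abcc9 (0.01) and Myh11 (0.33). Without background correction 4 of the 9 were lower and 0 higher. The summed signal went from 43045 to 19325, but most of it was Acta2 (35025 and 13782). Like the other sums, it is not normalized between arrays. The lower markers included Kcnj8 (-1.25), Mcam (-1.22), Acta2 (-1.18) and Pdgfrb (-1.14), and Cnn1 was not detected. Notch3, a marker of the same cells, was lower, and Heyl, which these cells also express, was higher. Satellite cell markers were lower in 5 of the 8 detected, of 12 listed, led by Sdc3 (-1.26) and Ncam1 (-1.17), with a summed signal of 6792 with vehicle and 4518 with DHT. The defining factors Pax7 and Myf5 were not detected. The part of these cell types in the receptor and effector values was not tested.

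Other cell types the sample could hold differed in both directions. Fibroblast markers were lower in 6 of 9 detected, with and without background correction, with summed signals of 108968 and 66556. They were led by Thy1 (-2.06), Col1a1 (-1.77), Col3a1 (-1.54) and Cd248 (-1.14), while Pdgfra (-0.17) and Dcn (0) were near equal. Macrophage markers were lower in 2 of 7, Mrc1 (-0.60) and Cx3cr1, at least 1.53-fold, with 6853 and 4843. Neither macrophage marker was past 1.5-fold without background correction (0 of 7), with the series values or with median scaling. T cell markers were detected with DHT alone in 3 of 9 listed (Cd8b1, Cd3d and Cd3g), with summed signals of 465 and 793, while Cd3e, Cd4 and Cd8a were detected on neither array. Without background correction 1 of these 3 T cell markers was past 1.5-fold. Adipocyte markers were higher in 4 of 5, with 3442 and 6205, and in 3 of 5 without background correction. Schwann cell and keratinocyte markers had 3 and 2 detected genes and 0 past 1.5-fold, with summed signals of 15521 and 15815 for the first and 2074 and 1874 for the second. The part of these cells in the values of the 10 Notch genes was not tested either.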

How the data were processed

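Total RNA, 0.55 µg per array, was amplified into biotin-labelled cRNA, per the labels. The deposited signal intensity of each probe is linear, without background subtraction or normalization between arrays. Beside it the authors deposited detection p-values, per the file headers. The deposited series values are log2 and differed by at most 0.000654 from log2 signals that were quantile normalized. GenomeStudio 2011.1 is named in the submitters' processing notes. What it did, and the genome build, is not given in the sources used here.

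Signals were background corrected from the detection p-values, offset by 16, quantile normalized and log2 transformed by neqc (limma 3.58.1, R 4.3.3). A check on simulated arrays scored only probes well above background. It does not cover signals as dim as those of the ligands, or of Mib1, Hey1 and Heyl with vehicle. Of the 25697 probes, 11949 were detected with vehicle and 11734 with DHT, and total signals were 29850200 and 26504000. The platform annotation, which can be old, gave 23978 probes 1 symbol, 0 several and 1719 none; 23962 Entrez identifiers matched a GRCm38.p6 gene table and 0 symbols changed. A gene took its detected probe with the highest mean. A gene detected on 1 array has a bound, against the lowest detected value of the other array or its own, and was counted at that bound; bounds hold on the background-corrected scale. Quartiles of brightness rank genes by the mean of both arrays. Every probe of the 10 genes is described. Of other pathway genes, those past 1.5-fold and all ligands, receptors and effectors are named. Of marker lists, up to 4 with the largest differences are named, and some under 1.5-fold beside them. The genes and lists were chosen with earlier results of these data known. Tables were made with pandas 2.3.3 under Python 3.11.15, and plots with matplotlib 3.10.9.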

Additional observations from a re-analysis of the deposited data

How the results depend on the processing

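Processing alternatives were another background correction (none, or an offset of 50), median scaling, the authors' series values, detection at a p under 0.05, detection on both arrays, means over probes, and leaving out probes above 40000. Counting genes detected on 1 array at their difference and not their bound was added after seeing the data. The members' counts of 4 higher and 2 lower held under these, except that Jag1 made 3 lower at a detection p under 0.05 and with differences in place of bounds. Several alternatives could not change these counts. Each of the 10 genes had 1 probe, none above 40000, and detection on both arrays could only drop Jag1. The series values differed by at most 0.000654 from those without background correction, so they repeat that alternative. No difference of the 10 genes changed sign, but all alternatives scale the arrays to each other. The raw signals of Mib2 and Jag2 went the other way. Without background correction Mib1, Hey1 and Heyl were at 1.34, 1.44 and 1.63, and with an offset of 50 at 1.96, 2.06 and 2.33. The other pathway genes had 3 higher without background correction, with an offset of 50 and with the series values. Their lower count was 12 without background correction and with the series values, and 16 with an offset of 50. Over all genes, the counts were 575 higher and 703 lower without background correction and with the series values. Median scaling moved the median of all genes by 0.04. No paired analysis was possible because each group has 1 array, and for the same reason no replicate could be left out. Signals near background limit what can be said of the ligands.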

Other observations

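The class C box CACGNG stood in 7 of the 8 RefSeq promoter windows of 300 bases found for Mib2, Dll1, Jag1, Jag2, Notch1 and Notch3, the exception being that of Notch1. It stood in 27.5% of all windows. The Mib2 windows overlap each other, and windows were not matched on base composition, so these letters are given as a description. TGTTCT, 1 arm of the androgen response element, stood in 1 of the 8 windows, 1 of those of Dll1, and in 19.0% of all windows. The RBPJ forms TGGGAA and CGTGGGAA stood in 0 of the 8, and in 25.6% and 0.734% of all windows.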
